A study of Homo sapiens with 3 samples.

Results

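The 69 replication-dependent histone genes of the human genome were examined for occupancy by CHD8 and TRRAP in neural stem cells. They were taken from GENCODE release 44 by symbol, as protein-coding genes named H2AC, H2BC, H3C or H4C with a number, or H1-1 to H1-6, and they are 69 of 20033 protein-coding genes. The set comprised 6 H1, 17 H2A, 18 H2B, 13 H3 and 15 H4 genes, of which 55 lie on chromosome 6, 13 on chromosome 1 and 1 on chromosome 12. Chromatin came from wild-type neural stem cells (hNSCs), grown with EGF and FGF and derived from H9 (an established line of human embryonic stem cells). It was crosslinked with 2 mM disuccinimidyl glutarate and 1% formaldehyde, sheared by 14 sonication cycles and immunoprecipitated with a CHD8 or a TRRAP antibody, followed by sequencing (ChIP-seq). The study asked whether CHD8 and TRRAP act together on MYC and E2F target genes. Each antibody had 1 library, so no difference has a replicate check and no test was possible, and the IgG control library was not analysed here. Intervals beside shares are Wilson 95% intervals and cover counting error only. They treat genes and peaks as independent, although neighbouring genes can share a peak and some are copies, so they may be too narrow. The read totals behind the peak lists are unknown.

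Replication-dependent histone genes supply the H1 linker histone and the H2A, H2B, H3 and H4 core histones that package newly made DNA in S phase. They lie in clusters, are present in many near-identical copies, lack introns in their main transcripts, and give mRNAs that end in a conserved stem-loop instead of a poly(A) tail. NPAT, a coactivator that sits at the histone gene clusters, drives their transcription with type-specific partners, such as HINFP at H4 genes and POU2F1 (OCT1) at H2B genes. CHD8 is an ATP-dependent chromatin remodeler. TRRAP is the scaffold subunit of the TIP60 and SAGA-type histone acetyltransferase complexes, which transcription factors recruit through it.

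CHD8 peaks were present at most histone genes, and TRRAP peaks at fewer. A peak was assigned to a gene if it overlapped the annotated gene or the 1 kb upstream of it by at least 1 bp. By this rule 60 of 69 histone genes had a CHD8 peak (87.0%, interval 77.0 to 93.0%), against 62.8% of all protein-coding genes. TRRAP peaks were found at 29 of 69 genes (42.0%, 31.1 to 53.8%), against 41.8% of all protein-coding genes, so the TRRAP share was close to that background. All 29 genes with TRRAP also had CHD8, so 42.0% had both, against 40.7% of all protein-coding genes. Over all protein-coding genes, 8152 of the 8382 with TRRAP had CHD8 too. CHD8 without TRRAP was found at 31 genes, TRRAP without CHD8 at 0 and neither at 9.

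The window grows with the gene, and 52 of the 69 histone genes are at most 2000 bp long. Among the 1025 other protein-coding genes of at most that length, 16.9% had a CHD8 peak, 9.85% a TRRAP peak and 9.56% both. The shares over all 69 histone genes were above these for either protein, but 17 of the 69 are longer than 2000 bp. With the window cut to the main transcript plus 1 kb upstream, 59 of 69 had CHD8 (85.5%) and 28 TRRAP (40.6%). The shares of the 52 short histone genes alone are not given here. Among genes with CHD8, TRRAP was present at 29 of 60 histone genes (48.3%, 36.2 to 60.7%), at 64.8% of 12571 protein-coding genes, and at 98 of 173 short genes (56.6%, 49.2 to 63.8%). The interval of the histone share lay below the share of all genes and overlapped that of short genes.

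The histone genes were not among the strongest sites of either list. The fold is the authors' value for the signal at a peak over the caller's background. The strongest CHD8 peak per occupied histone gene had a median fold of 11.5 (range 6.22 to 18.6), against 12.4 over all protein-coding genes with a peak. The corresponding TRRAP median was 9.12 (6.73 to 20.6), equal to that of all protein-coding genes. The CHD8 list held 76 distinct peaks in histone gene windows, the best at rank 2148 of 23393. The TRRAP list held 37, the best at rank 694 of 14735. All 37 TRRAP peaks overlapped a CHD8 peak (90.6 to 100%), and 30 of the 76 CHD8 peaks overlapped a TRRAP peak (39.5%, 29.2 to 50.7%). These overlap shares are not given here for the whole lists, so they are not read as particular to histone genes. By gene, 8152 of the 8382 protein-coding genes with TRRAP also had CHD8. CHD8 peaks at histone genes were at least 1 kb wide in 12 of 76 cases (15.8%), against 9.17% of the whole list.

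**Figure D1:**
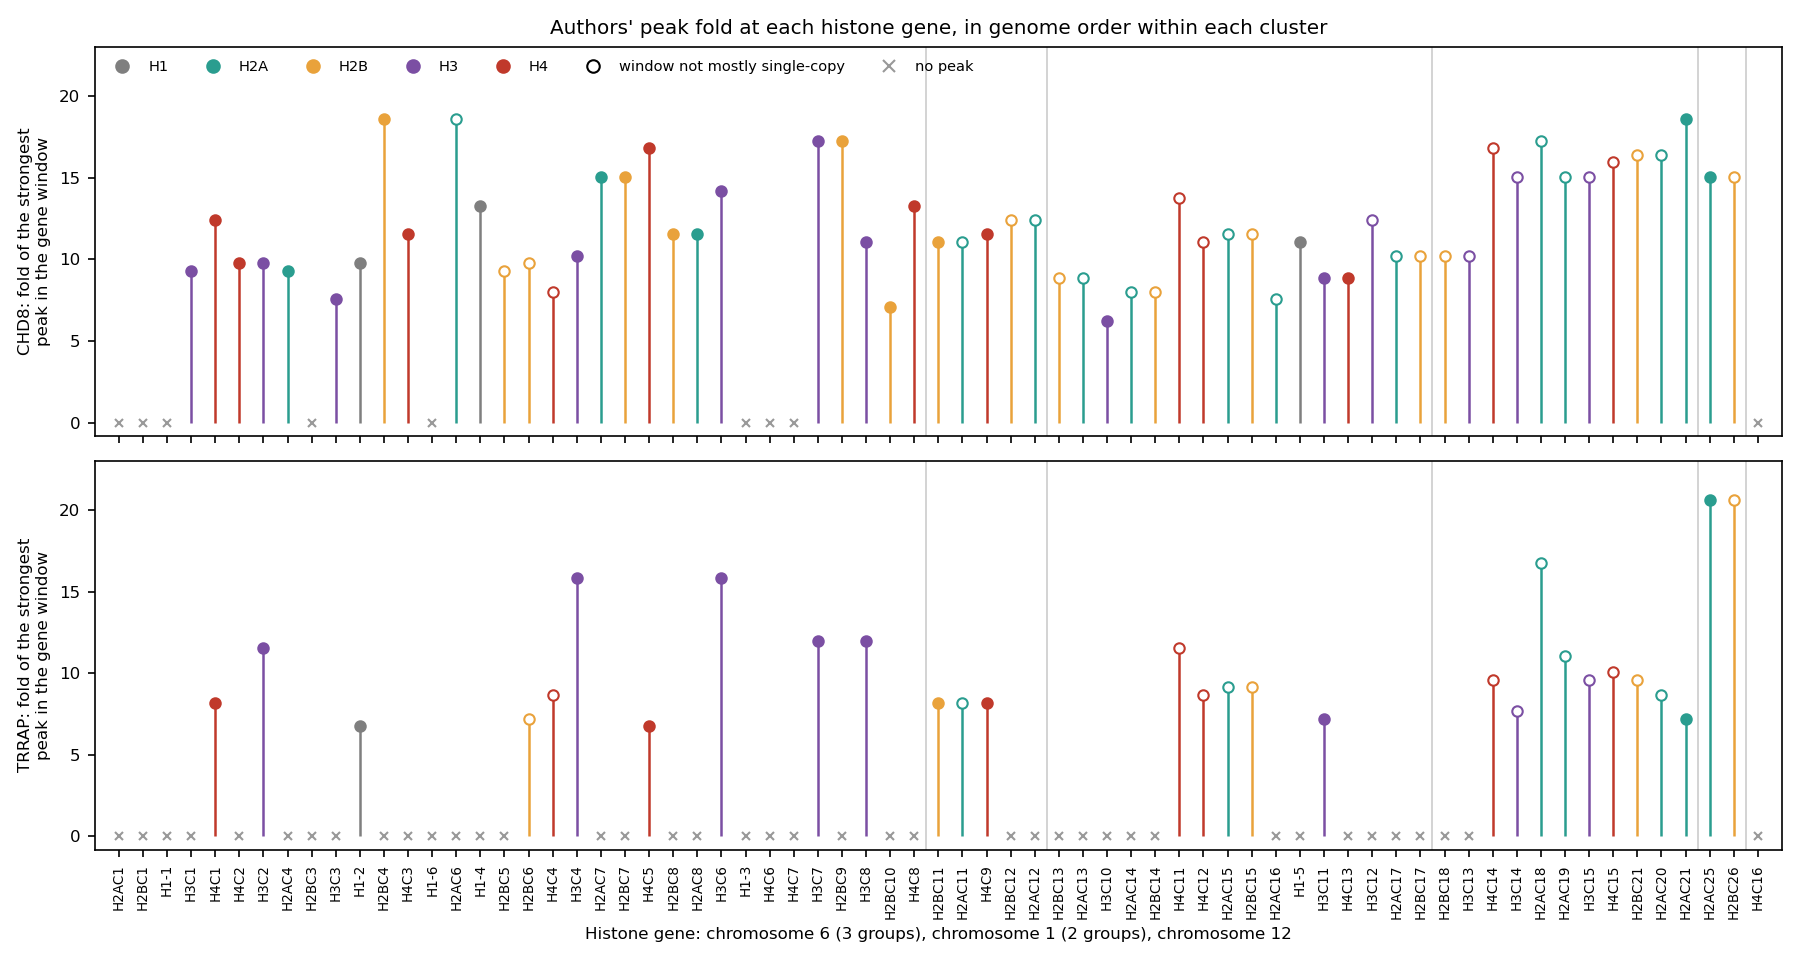
Fold of the strongest CHD8 peak (top) and TRRAP peak (bottom) in the window of each of the 69 histone genes, in genome order within the groups of chromosome 6, chromosome 1 and chromosome 12, coloured by histone type. Crosses mark genes without a peak, and open circles mark windows in which under 90% of 32-base words are single-copy. CHD8 was found at 60 genes and TRRAP at 29, and the highest TRRAP fold was 20.6 at the H2AC25 and H2BC26 pair.

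Among the core histones, CHD8 was found at 80.0 to 100% of the genes of each type, beside 62.8% of all protein-coding genes. H3 genes, which encode the histone carrying the lysine 4 and lysine 27 marks, had CHD8 at 13 of 13 (77.2 to 100%). H2A genes had it at 16 of 17 and H2B genes at 16 of 18. H4 genes had it at 12 of 15 (54.8 to 93.0%, an interval that holds the share of all genes), and the linker histone H1 genes at 3 of 6. The intervals of all 5 types overlapped. The highest CHD8 fold, 18.6, was found at H2BC4 and H2AC6, which share the peak at chr6:26122862-26123984, and at H2AC21, whose peak at chr1:149888114-149888872 lies upstream of the gene and also in the window of BOLA1. H3C7 and its neighbour H2BC9 shared a peak of fold 17.3, H2AC18 had a fold of 17.3, and H4C5 and H4C14 each had 16.8.

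The TRRAP counts on chromosome 6 were set out by type, beside the 41.8% of all protein-coding genes with TRRAP. H3 genes there had TRRAP at 6 of 10 and H4 genes at 6 of 12, whereas H2A genes had it at 2 of 12 and H2B genes at 3 of 15. Joined, H3 and H4 genes had TRRAP at 12 of 22 (54.5%, 34.7 to 73.1%) and H2A and H2B genes at 5 of 27 (18.5%, 8.18 to 36.7%). These intervals overlapped, the share of all protein-coding genes lay inside the first and above the second, and the grouping was chosen after the values were seen. CHD8 was found at 20 of 22 and 24 of 27. On windows that are mostly single-copy, TRRAP was found at 9 of 16 H3 and H4 genes and at 1 of 12 H2A and H2B genes. With a window reaching 2500 bp upstream, the H2A and H2B count rose to 9 of 27, while H3 and H4 stood at 13 of 22.

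The 5 H2A and H2B genes of chromosome 6 with TRRAP were 2 divergent pairs and H2BC6. H2BC11 and H2AC11 had 2 TRRAP peaks, the stronger of fold 8.17, and H2AC15 and H2BC15 shared 1 peak of fold 9.12. The TRRAP peak of H2BC6 (fold 7.21) lies at the start of the 12597 bp annotated gene, -11765 bp from the start of its main transcript. The median fold of the whole TRRAP list was 8.17. Among H3 genes of chromosome 6, 5 of the 6 with TRRAP lay above it and H3C11 below it. H3C4 and H3C6 had 15.8, H3C7 and H3C8 had 11.99, H3C2 had 11.5 and H3C11 had 7.21. H4 genes of chromosome 6 ranged from 6.73 at H4C5 to 11.5 at H4C11.

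**Figure D2:**
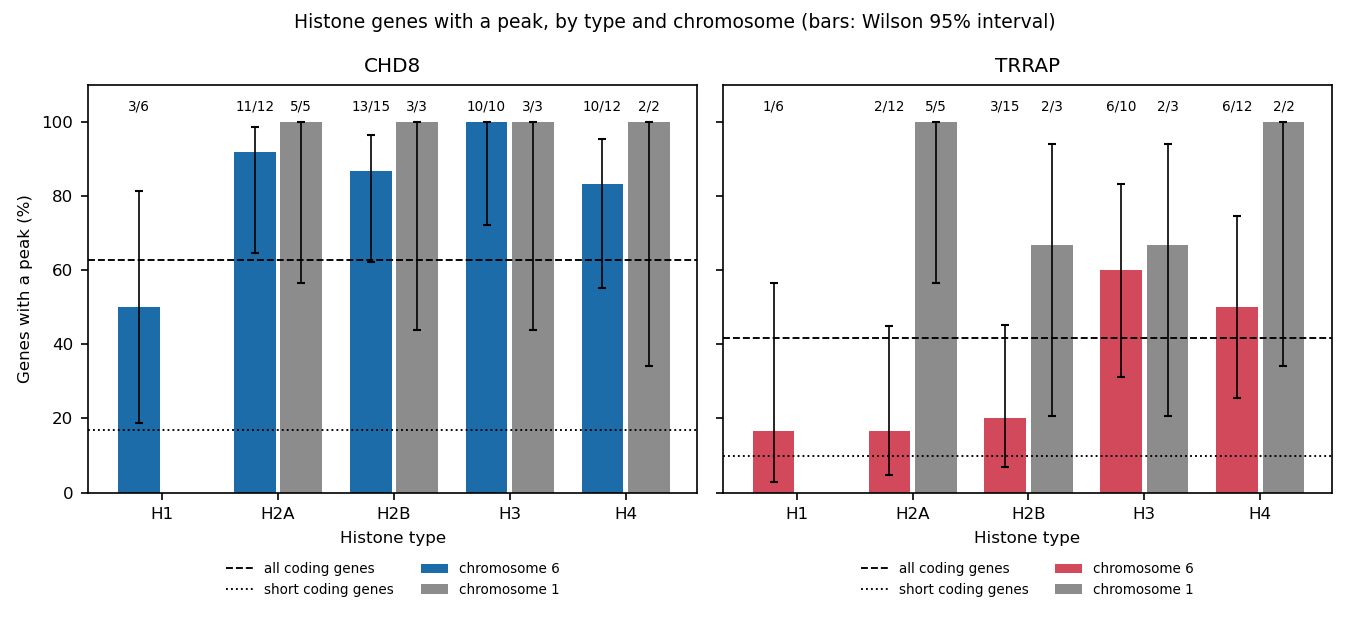
Share of histone genes with a CHD8 peak (left) or TRRAP peak (right) by histone type, for chromosome 6 (coloured) and chromosome 1 (grey), with Wilson 95% intervals as bars and the counts above. The dashed line is the share over all protein-coding genes (62.8% and 41.8%) and the dotted line that over other short protein-coding genes (16.9% and 9.85%). On chromosome 6, TRRAP was found at 6 of 10 H3 and 6 of 12 H4 genes but at 2 of 12 H2A and 3 of 15 H2B genes.

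The linker histone genes, all on chromosome 6, split evenly for CHD8. H1-4 had a CHD8 fold of 13.3, H1-5 of 11.1 and H1-2 of 9.75. H1-2 was the H1 gene with TRRAP (fold 6.73), and the TRRAP summit lay 17 bp downstream of its start. H1-1, H1-3 and H1-6, the last a linker histone of the testis, had neither protein in their windows. At H1-3, 1 CHD8 peak lay outside the window but within 1 kb of the start. H1-6 lies inside the 37610 bp annotated body of H2BC4, which also holds H4C3. H4C3 had CHD8 (fold 11.5) and no TRRAP.

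The 9 histone genes without either protein were H2AC1, H2BC1, H1-1, H2BC3, H1-6, H1-3, H4C6 and H4C7 on chromosome 6 and H4C16 on chromosome 12. H2AC1 and H2BC1 form a divergent pair that encodes the testis forms of H2A and H2B. All 8 on chromosome 6 lie in its largest group of histone genes (chr6:25723397-26285638), in which 26 of 34 histone genes had CHD8 and 10 had TRRAP. In the other groups of chromosome 6, CHD8 was found at 5 of 5 genes (chr6:27125897-27147562) and at 16 of 16 (chr6:27807479-27893891), and TRRAP at 3 and 5 of them. H4C16, the single gene away from the clusters, had no peak of either list. H4C6 and H4C7 have windows with 75.1% and 81.8% single-copy words, and the other 7 genes without peaks have over 90%.

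Peaks within the clusters were also counted away from the histone genes. The spans of the groups held 89 CHD8 peaks, of which 74 were in histone gene windows and 15 elsewhere, 9 of the 15 in the largest group. Within the spans lie 10 other protein-coding genes, and 2 of them had peaks (20.0%, 5.67 to 51%, for either protein). Of all protein-coding genes, 62.8% had CHD8, above this interval, and 41.8% had TRRAP, inside it. The 2 genes with peaks overlap windows of histone genes: BOLA1 next to H2AC21, and the unnamed gene ENSG00000282988, which covers H3C4 and H2AC7. The sodium-phosphate transporter genes SLC17A1, SLC17A2, SLC17A3 and SLC17A4, TRIM38, the iron regulator gene HFE, FCGR1A and ENSG00000290217 had no peak of either list.

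Most H2A and H2B genes are arranged in pairs that are transcribed away from each other over a shared promoter. There were 13 such divergent pairs with starts at most 1 kb apart (194 to 979 bp, median 240 bp). Of these, 12 paired H2A with H2B and 1 paired H3C7 with H2BC9. CHD8 was present at 12 of 13. In each of these 12, exactly 2 CHD8 peaks touched the main transcripts or the sequence between their starts. The wider gene windows held more at some pairs, up to 5 at H2AC25. In 8 pairs 1 summit lay in the transcript of each gene, and in the other 4 a summit lay in the transcript of 1 gene. A peak that spanned both starts was found in 0 of 13 pairs, and a summit between the starts in 1 (H2AC14 and H2BC14). CHD8 peaks covered a median of 26.5% of the sequence between the starts in the occupied pairs, at most 74.2%. That sequence was 70.4 to 100% single-copy (median 100%), and the paired transcripts had a median of 87.4%. TRRAP was present at 5 pairs, with 0 summits between the starts.

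**Figure D3:**
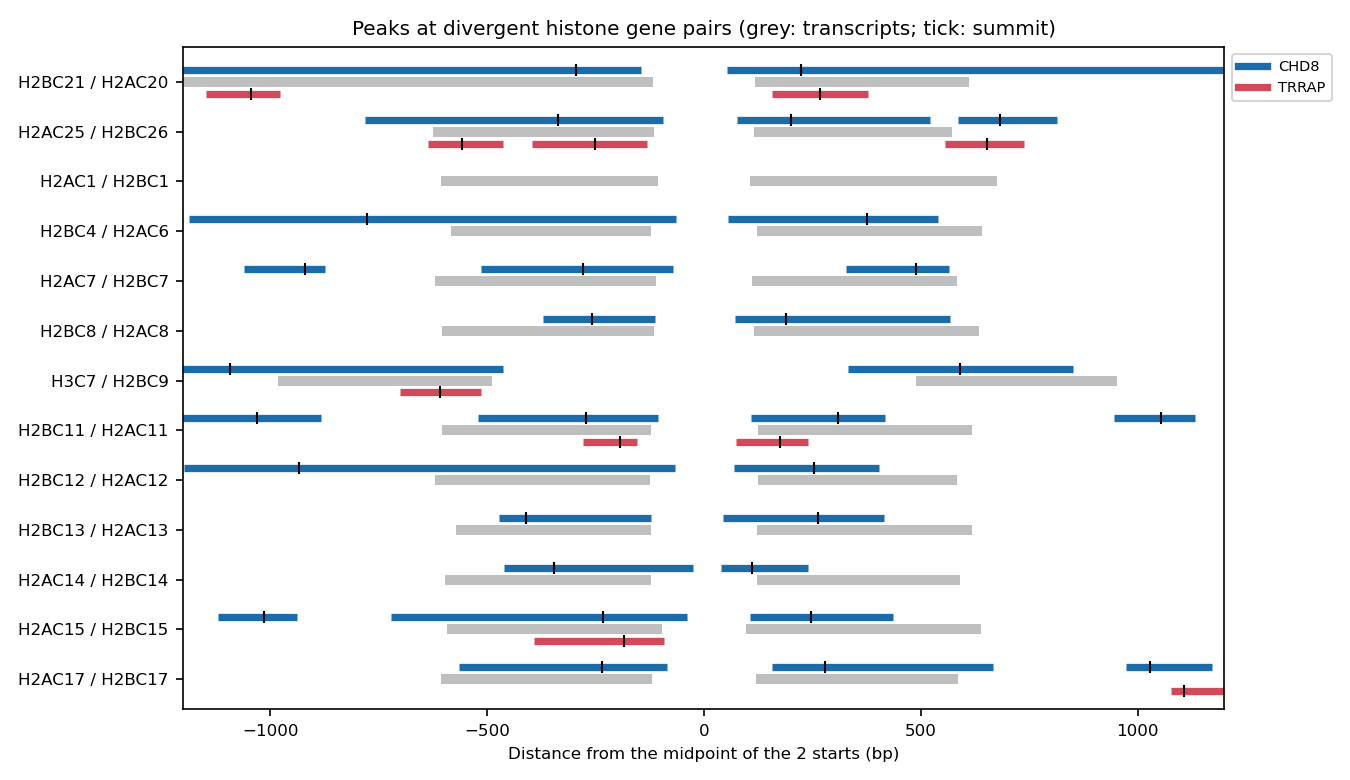
CHD8 peaks (blue) and TRRAP peaks (red) at the 13 divergent histone gene pairs, by distance in bp from the midpoint of the starts. Grey bars are the main transcripts and ticks mark summits. In 12 pairs a CHD8 peak lay on either side and none spanned both starts, and the H2AC1 and H2BC1 pair had no peak of either list.

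The stretches between starts are given for the pair without peaks and for the pair with the highest CHD8 fold, since their promoters hold like elements. The summit of the peak of fold 18.6 lay outside the stretch, 654 bp downstream of the H2BC4 start. The CHD8 peak with its summit in H2AC6 had a fold of 8.43. Capitals mark the words searched for, on either strand. These were the TATA box TATAAA and the word CCAAT, which is bound by NF-Y. The octamer ATTTGCAT is bound by POU2F1. GGTCCG is the core of the element that HINFP binds at H4 genes. E2F factors bind TTTGGCGC and its relative TTTCGCGC, and MYC binds the E-box, searched as CACGTG. Sequences are from the GRCh38 reference, in the direction of the stated strand.
H2AC1 and H2BC1, no peak, chr6:25726563-25726776, plus strand: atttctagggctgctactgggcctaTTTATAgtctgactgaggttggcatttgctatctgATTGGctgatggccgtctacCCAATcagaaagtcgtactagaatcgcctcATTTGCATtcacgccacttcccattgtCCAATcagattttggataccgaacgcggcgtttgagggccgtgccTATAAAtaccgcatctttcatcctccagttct
H2BC4 and H2AC6, CHD8 fold 18.6, chr6:26123927-26124171, plus strand: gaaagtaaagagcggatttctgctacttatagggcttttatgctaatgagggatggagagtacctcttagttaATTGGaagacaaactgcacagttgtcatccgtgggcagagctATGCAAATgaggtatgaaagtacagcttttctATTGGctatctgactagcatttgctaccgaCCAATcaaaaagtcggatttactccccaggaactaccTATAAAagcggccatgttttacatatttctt
Both stretches hold 3 CCAAT words and 1 octamer, and TATAAA occurs 2 times in the first and 1 time in the second.

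More CHD8 summits at histone genes lay inside the main transcripts than outside them. Of the 76 CHD8 summits in histone gene windows, 43 fell in coding sequence (56.6%), 3 in the untranslated part before it and 30 outside the main transcripts. For the 64 CHD8 peaks within 1 kb of the nearest histone gene start, the median summit was 115 bp downstream of the start (25th to 75th percentile 48 to 178.5 bp). Summits were downstream in 53 of 64 (82.8%, 71.8 to 90.1%). At divergent pairs the nearest-start rule leaves little room upstream, since a summit past the partner's start counts as downstream of the partner. At H3 and H4 genes, of which only H3C7 is in such a pair, 10 of 13 summits each were downstream (76.9%, 49.7 to 91.8%). Over 12176 CHD8 peaks near the starts of other protein-coding genes the median was -6 bp, and 48.4% were downstream. For the 171 at other short genes the median was -14 bp and 43.9% (36.6 to 51.4%) were downstream. A summit was called single-copy if the median copy number of the 32-base words within 50 bp of it was 1. Restricted to the 51 single-copy histone summits, 80.4% (67.5 to 89.0%) were downstream. By type, the median CHD8 position was 154 bp at H2B, 128 bp at H1, 115 bp at H2A, 105 bp at H3 and 53 bp at H4 genes.

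**Figure D4:**
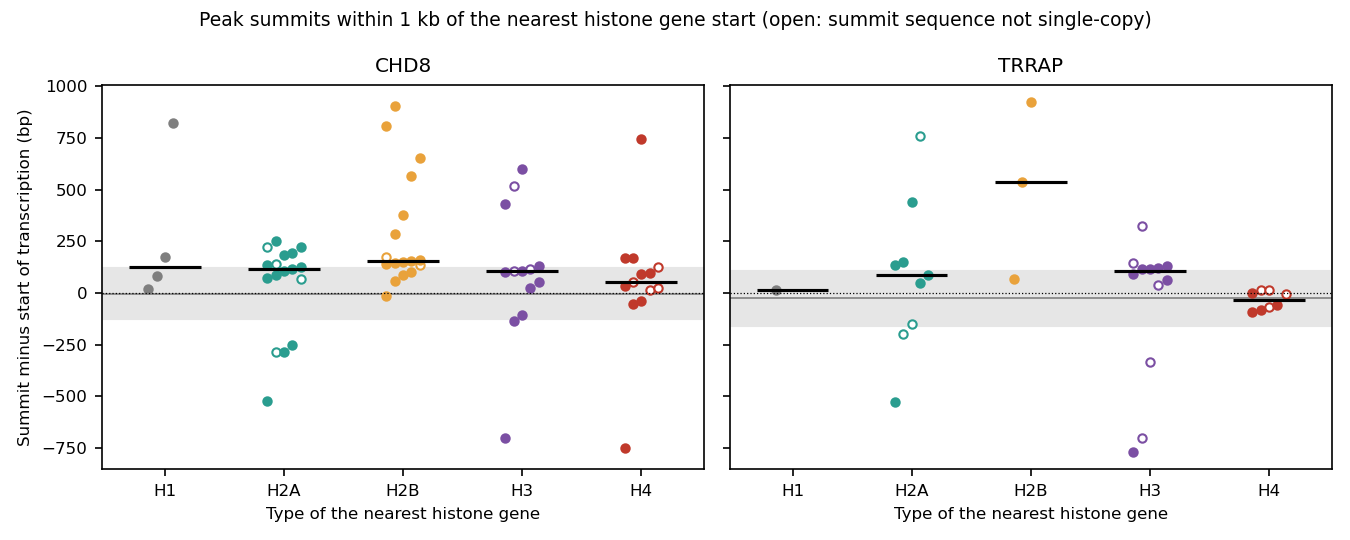
Position of CHD8 (left) and TRRAP (right) summits relative to the nearest histone gene start, for peaks within 1 kb of it, by type of that gene. Points are peaks, open where the median 32-base word within 50 bp of the summit is not single-copy. Black bars are medians, and the grey band and line are the 25th to 75th percentile and median over other protein-coding genes. CHD8 summits had a median of 115 bp over 64 peaks, and TRRAP summits a median of 105.5 bp at H3 and -31.5 bp at H4 genes.

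TRRAP summits were also placed by type. The 8 TRRAP summits nearest H4 starts ran from -89 to 15 bp, with a median of -31.5 bp, and 2 of 8 were downstream (25%, 7.15 to 59.1%). The 12 nearest H3 starts had a median of 105.5 bp, and 9 of 12 were downstream (75%, 46.8 to 91.1%), an interval that overlaps that of H4. With single-copy summits alone, the medians were -69.5 bp over 4 peaks at H4 and 118 bp over 7 at H3. Over other protein-coding genes the median was -26 bp, with 42.5% of 7713 summits downstream. At the 6 H3 genes of chromosome 6 with TRRAP, the summit of the peak over the start of the coding sequence lay 65 bp (H3C2), 93 bp (H3C8), 118 bp (H3C4 and H3C7), 121 bp (H3C6) and 131 bp (H3C11) downstream of the start. H3C6 had 2 further TRRAP peaks, with summits at -767 and -1335 bp.

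The stretches under these 6 summits follow, 30 bases to each side of the summit base, which is in capitals, read along the gene. They are shown because H3 genes are near copies of each other. At all 6 summits the median copy number of the 32-base words within 50 bp is 1, so some of these words may still occur elsewhere.
H3C2, fold 11.5, chr6:26032004-26032064, minus strand: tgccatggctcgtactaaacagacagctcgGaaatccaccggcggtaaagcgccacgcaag
H3C4, fold 15.8, chr6:26197138-26197198, minus strand: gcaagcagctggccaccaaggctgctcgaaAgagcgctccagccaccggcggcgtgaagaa
H3C6, fold 15.8, chr6:26225226-26225286, plus strand: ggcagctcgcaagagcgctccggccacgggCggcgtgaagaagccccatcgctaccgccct
H3C7, fold 11.99, chr6:26250487-26250547, minus strand: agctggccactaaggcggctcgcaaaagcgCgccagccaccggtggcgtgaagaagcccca
H3C8, fold 11.99, chr6:26271290-26271350, minus strand: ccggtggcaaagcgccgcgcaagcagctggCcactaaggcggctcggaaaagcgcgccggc
H3C11, fold 7.21, chr6:27872185-27872245, minus strand: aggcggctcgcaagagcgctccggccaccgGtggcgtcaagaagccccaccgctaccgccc
The stretches lie at different offsets near the start of the H3 coding sequence, and not all of them cover the same part. That of H3C2 begins just before the ATG. Between H3 coding sequences of equal length the median identity was 85.3% (80.9 to 100%), and it was 85.6% for H2A, 89.8% for H2B and 83.8% for H4.

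**Figure D5:**
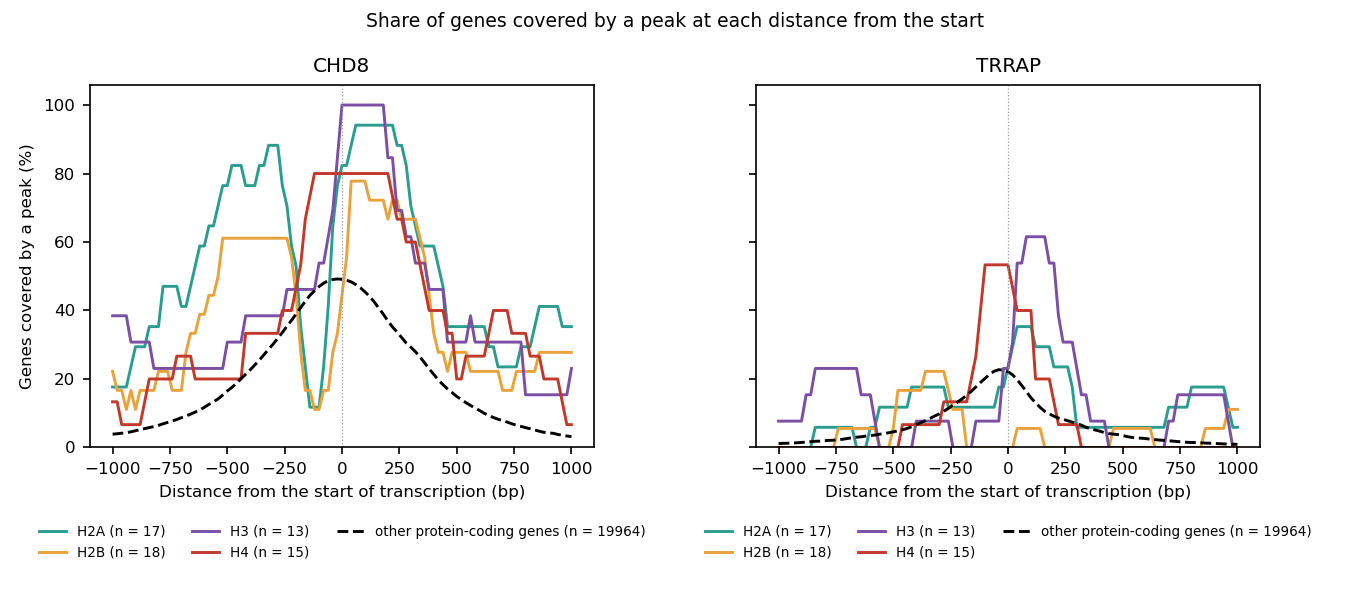
Share of genes covered by a CHD8 peak (left) or TRRAP peak (right) at each distance from the start of transcription, for H2A, H2B, H3 and H4 genes and for other protein-coding genes (dashed). At 100 bp upstream, CHD8 covered 11.8% of H2A and 11.1% of H2B genes but 53.8% of H3 and 80.0% of H4 genes. TRRAP covered 61.5% of H3 genes at 100 bp downstream and 53.3% of H4 genes at 100 bp upstream. Among other protein-coding genes the TRRAP shares at these positions were 14.5% and 20.2%.

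The coverage by position showed the same arrangement over genes. At 100 bp upstream of the start, CHD8 peaks covered 2 of 17 H2A and 2 of 18 H2B genes, 7 of 13 H3 genes and 12 of 15 H4 genes. At 100 bp downstream they covered 16 of 17 H2A, 14 of 18 H2B, 13 of 13 H3 and 12 of 15 H4 genes. At 500 bp upstream, which lies past the start of the partner gene in the 12 pairs of H2A with H2B, they covered 13 of 17 H2A and 11 of 18 H2B genes. Other protein-coding genes had no such dip, with 16.5%, 47.0% and 45.4% covered at 500 bp upstream, 100 bp upstream and 100 bp downstream. TRRAP covered 8 of 15 H4 genes at 100 bp upstream and 6 of 15 at 100 bp downstream. Other protein-coding genes likewise had more TRRAP coverage at 100 bp upstream (20.2%) than at 100 bp downstream (14.5%). At H3 genes TRRAP covered 1 of 13 at 100 bp upstream and 8 of 13 at 100 bp downstream.

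A larger share of the histone genes of chromosome 1 had TRRAP than of those of chromosome 6. CHD8 was found at 13 of 13 genes (77.2 to 100%) on chromosome 1 and 47 of 55 (85.5%, 73.8 to 92.4%) on chromosome 6. TRRAP was found at 11 of 13 (84.6%, 57.8 to 95.7%) on chromosome 1 and 18 of 55 (32.7%, 21.8 to 45.9%) on chromosome 6. These intervals did not overlap, but they count genes that share a peak or are copies of each other as separate genes. The median CHD8 fold was 15.1 on chromosome 1 and 11.1 on chromosome 6. All 5 H2A genes of chromosome 1 had TRRAP, against 2 of 12 on chromosome 6. The highest TRRAP fold of all histone genes, 20.6, was in the peak at chr1:228457592-228457858, in the coding sequence of H2AC25 beside H2BC26, 136 bp from the start. The CHD8-only genes of chromosome 1 were H2BC18 and H3C13, both with a CHD8 fold of 10.2.

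Much of the chromosome 1 set lies in sequence present in more than 1 copy. Of the 13 chromosome 1 genes, 6 lie in an inverted repeat, in which H4C14 and H4C15, H3C14 and H3C15, and H2AC18 and H2AC19 are copies of each other. The windows of H3C14, H3C15, H4C14 and H4C15 hold 0% single-copy words, and those of H2AC18, H2AC19, H2BC18 and H3C13 hold 15.6 to 21.2%. All 6 genes of the repeat had both proteins. Without them, TRRAP was found at 5 of 7 genes of chromosome 1 (71.4%, 35.9 to 91.8%), an interval that overlaps that of chromosome 6. Only 2 chromosome 1 genes, H2AC21 and H2AC25, have windows that are at least 90% single-copy, and both had both proteins. On chromosome 6, 34 windows met that measure, and TRRAP was found at 11 of them (32.4%, 19.1 to 49.2%). The part that read placement in the repeat plays was not tested.

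CHD8 folds were higher where TRRAP was also found, with a median of 13.7 at the 29 histone genes with both proteins and 10.2 at the 31 with CHD8 alone. Within chromosome 6 the medians were 11.1 and 10.2, and the 25th to 75th percentiles (9.86 to 12.2 and 8.87 to 12.4) overlapped almost wholly. Over all protein-coding genes the medians were 13.3 and 10.2. The CpG ratio (observed over expected CpG within 500 bp of the start) had a median of 0.914 at histone genes with TRRAP and 0.839 at those without. It was 0.853 over all 69 genes, 0.696 over the 9 without CHD8 and 0.725 over all protein-coding genes. Of the 29 histone genes with TRRAP, 11 lie on chromosome 1, and CpG medians within chromosome 6 are not given here.

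Promoters of the histone types hold different words. Promoters were taken from 250 bp before to 50 bp after the start, and exact words were sought on either strand. Divergent partners share much of their windows, and words may overlap each other. TATAAA was present in 46 of 69 histone promoters (66.7%), against 9.71% of all protein-coding promoters. CCAAT was present in all H1, H2A, H2B and H3 promoters and in 5 of 15 H4 promoters, against 36.1%. The octamer ATTTGCAT was present in 12 of 17 H2A and 14 of 18 H2B promoters and in 0 of the H1, H3 and H4 promoters, against 1.62%. The E2F words were present in 13 histone promoters (18.8%), 6 of them H2A, 6 H2B and 1 H3, against 1.55%. The E-box CACGTG was present in 0 of 69, against 8.76%.

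TRRAP was found at 6 of the 26 histone genes with the octamer and at 3 of the 13 with an E2F word, beside 29 of all 69 (42.0%). The octamer occurred in H2A and H2B promoters alone, and TRRAP was found at 12 of these 35 genes (34.3%, 20.8 to 50.8%), so word and type cannot be told apart. The 220 bases upstream of an H2A, an H3 and an H4 gene are given, as examples and not as typical members. The same words are in capitals. Each gene had the highest CHD8 fold of its type among genes with mostly single-copy windows. H2AC6 and H4C14 had equal folds in windows that are not mostly single-copy. The summits of the 3 strongest peaks lay outside the stretches, at -524 bp (H2AC21), 603 bp (H3C7) and 744 bp (H4C5) from the start. The H2A promoter carries CCAAT words and an octamer, the H3 promoter an E2F word and a CCAAT word that overlaps a GGTCCG on the other strand, and the H4 promoter the HINFP core. H3C7 is the 1 H3 gene of 13 with an E2F word and the 1 with GGTCCG.
H2AC21, chr1:149887966-149888185, minus strand: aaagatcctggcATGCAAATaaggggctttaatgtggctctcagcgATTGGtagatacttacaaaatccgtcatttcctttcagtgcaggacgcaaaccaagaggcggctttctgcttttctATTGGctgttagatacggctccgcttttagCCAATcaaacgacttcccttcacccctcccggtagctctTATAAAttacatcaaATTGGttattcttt
H3C7, chr6:26250636-26250855, minus strand: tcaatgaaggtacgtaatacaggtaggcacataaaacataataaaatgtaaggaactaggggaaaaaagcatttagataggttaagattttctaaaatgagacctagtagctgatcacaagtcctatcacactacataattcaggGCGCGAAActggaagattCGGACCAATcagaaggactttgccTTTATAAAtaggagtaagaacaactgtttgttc
H4C5, chr6:26204390-26204609, plus strand: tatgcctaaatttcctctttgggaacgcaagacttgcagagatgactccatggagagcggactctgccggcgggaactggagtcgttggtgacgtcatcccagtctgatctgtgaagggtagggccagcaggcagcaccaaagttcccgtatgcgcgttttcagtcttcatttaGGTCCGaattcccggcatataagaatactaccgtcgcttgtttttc

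The HINFP core marked the H4 genes whether or not the proteins were found. GGTCCG was present in 13 of 15 H4 promoters (86.7%), against 14.7% of all promoters, and in each of the 13 it began 44 to 47 bp upstream of the start. It was present in 7 of the 8 H4 genes with TRRAP and in 6 of the 7 without. The last 70 bases before the start are shown for H4C16, which had neither protein, and for 3 genes with both proteins, and all 4 hold the word.
H4C16, chr12:14771132-14771201, minus strand: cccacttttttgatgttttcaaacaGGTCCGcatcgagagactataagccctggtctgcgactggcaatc
H4C5, chr6:26204540-26204609, plus strand: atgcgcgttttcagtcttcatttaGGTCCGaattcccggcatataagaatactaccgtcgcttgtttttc
H4C9, chr6:27139212-27139281, plus strand: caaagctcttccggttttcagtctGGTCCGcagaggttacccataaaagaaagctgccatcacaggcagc
H4C11, chr6:27824022-27824091, plus strand: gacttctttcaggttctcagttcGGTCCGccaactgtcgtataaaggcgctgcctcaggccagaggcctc
Capitals mark GGTCCG. TRRAP summits at these genes were at -89 bp (H4C5), -1 bp (H4C9) and -4 bp (H4C11).

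The label of the set was checked against the stem-loop at the end of replication-dependent histone mRNAs, which is bound by SLBP. A pattern of 16 letters with a run of 4 thymines was searched in the 200 bp after the end of the coding sequence, on the strand of the gene. It was found in 66 of 69 histone genes and in 6 of 19964 other protein-coding genes (0.0301%), and it began 25 to 70 bp after the coding sequence (median 38.5 bp). The commonest form, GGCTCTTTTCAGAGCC, was found in 40 genes, and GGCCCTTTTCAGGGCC in 10. The exact pattern was not found in H3C6, H2BC10 or H4C13, each of which had CHD8. All 69 main transcripts have 1 exon, with a median length of 487 bp.

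Genes whose products act on histone genes and histones were counted in the same way, from lists written for this purpose. Of 13 genes for histone gene transcription and mRNA end processing, CHD8 was found at 13 and TRRAP at 9, beside 62.8% and 41.8% of all protein-coding genes. Within 1 kb of the start, TRRAP was found at 8, and no share over all genes is given here for that window. SLBP had the highest TRRAP fold among them (19.2), followed by NPAT (15.8) and HINFP (11.99). ZNF473 and LSM11, which act in end processing, and CASP8AP2 and CSTF2 had CHD8 without TRRAP. Of 10 histone chaperone and deposition genes, CHD8 was found at 10 and TRRAP at 5. ASF1A, a chaperone of H3 and H4, had the highest TRRAP fold (43.0), and NASP had 27.8. HIRA, which deposits H3.3 outside replication, had the highest CHD8 fold (33.6). CHAF1A and CHAF1B, subunits of the replication-coupled CAF-1, and ASF1B, HAT1 and RBBP7 had CHD8 without TRRAP.

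Of 10 histone variant genes that are transcribed outside S phase, CHD8 was found at 9 and TRRAP at 7. Of all protein-coding genes, 62.8% had CHD8 and 41.8% TRRAP. Within 1 kb of the start TRRAP was found at 4 of the 10, and no share over all genes is given here for that window. The exception for CHD8 was H2AJ, which also lacked TRRAP and lies near H4C16 on chromosome 12. H3-3A and H3-3B, which both encode H3.3, had CHD8 folds of 26.1 and 17.3 and TRRAP folds of 16.3 and 21.1. H2AX and MACROH2A2 had CHD8 alone. Among the markers of cell type, both proteins were found at all 5 neural stem cell genes (SOX2, NES, PAX6, SOX1 and VIM; 56.6 to 100%). Of the 2 pluripotency genes (POU5F1 and NANOG), 0 had either (0 to 65.8%). Both proteins were found at 40.7% of all protein-coding genes, and these marker lists are short. Of the neuronal genes, TUBB3 had both, SYN1 CHD8 alone and RBFOX3 neither. Peaks do not measure expression, so these counts describe occupancy at the markers only.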

How the data were processed

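CHD8 and TRRAP ChIP-seq peak lists of 1 library each were used. Per the submitters' processing notes, HISAT2, MACS2 2.1.1.20160309 and build GRCh38 were used, with no role or order given. The control, filters and treatment of reads that map to several places are not given in the sources used here. The deposited fold (a linear ratio over background), −log10 p, −log10 q and score (10 times −log10 q, rounded down) are the authors' values for each peak. They were used only within a list. The file names give a false discovery rate of 0.0001 for CHD8 and of 0.001 for TRRAP.

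From these, overlaps with GENCODE 44 genes, summit positions, words and the copy number of 32-base words in GRCh38 were computed with Python 3.11.15, pandas 2.3.3, numba 0.67.0, pysam 0.24.0, samtools 1.23.1 and matplotlib 3.10.9. Ranks follow −log10 q, then fold, then width. Starts are those of canonical transcripts. Overlap and nearest-start searches were checked on simulated peaks. The members and lists were chosen with earlier results of these data known. Named genes were those without peaks, with the highest folds, all H1 genes, those in repeated sequence and members outside the clusters. No test was run, since each antibody had 1 library. 1 gene of the variant list and 1 promoter sequence are not reported here.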

Additional observations from a re-analysis of the deposited data

How the results depend on the processing

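Each count was recomputed with other windows, overlap rules, peak filters and gene sets, and 108 of 129 recomputed values stayed within 1.5 times the count, or within the interval of the share or median. The values for both proteins mostly repeat those for TRRAP. With peaks above the median rank of each list, CHD8 was found at 47 of 69 genes (68.1%), TRRAP at 19 and both proteins at 18. On chromosome 6 these counts were 34, 10 and 9. The CHD8 counts fell from 60 and 47 but stayed within 1.5 times. No share over all genes is given here for this filter. Among mostly single-copy windows, which are fewer (37, of which 34 on chromosome 6 and 2 on chromosome 1), CHD8 was found at 30, TRRAP at 13 and both at 13. On chromosome 6 these counts were 28, 11 and 11, and on chromosome 1 each was 2. Without the inverted repeat, an alternative chosen after seeing the data, chromosome 1 had CHD8 at 7 of 7 genes, TRRAP at 5 and both at 5. The share of TRRAP peaks overlapping a CHD8 peak was 64.9% when centres had to lie within 200 bp and 90% for peaks above the median rank. On chromosome 6 the H2A and H2B genes with TRRAP numbered 9, 2 and 1 with 2500 bp upstream, above the median rank and in single-copy windows. Counting each peak for its nearest start only removed CHD8 from H3C15 and H2AC7 and TRRAP from H2BC15. With 1 kb on each side of the start, CHD8 was again found at 60 genes, but H1-3 gained it and H2BC6 lost it. No paired analysis was possible because each antibody had 1 library. Depth is unknown, and a gene without a peak may hold signal below the threshold of the list.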
